A study of Mus musculus with 6 samples.

Results

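The genes described here are 46 genes of cell division: the motors of the mitotic spindle, the checkpoint and kinetochore proteins that attach chromosomes to it, the kinases and proteases that time anaphase, and the condensins. They were chosen by name. Expression was measured on Affymetrix arrays as log2 values made with RMA, which corrects background and normalises arrays to each other. A gene's value came from its probe set (the group of probes for a transcript) with the highest mean, and 45 of the 46 genes were measured, of 19938 genes in all. The probe set annotated to Kifc1 is also annotated to Kifc5b, so Kifc1 has no value of its own. The level of a probe set depends on its probes, so levels are compared between samples and never between genes.

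The cells were CD8+ T cells from spleens of female C57BL/6 mice carrying the Pmel-1 T cell receptor transgene, which recognises the melanoma antigen gp100. All 6 samples share this receptor. Naive cells were collected fresh and sorted as CD8+ Thy1.1+ cells. The other cells received gp100 for 4 days and either IL-2 or IL-12 for 6 days, and no sort is named for them. How these days overlap is not stated. Each group had 2 arrays. Whether 2 arrays of a kind stand for different mice or cultures is not stated, so p-values measure the spread between arrays, which may be technical. The study set IL-12 against IL-2 priming to look for genes that matter for activity against tumours.

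A naive T cell rests outside the cell cycle and divides after it meets antigen and cytokine. Spindle genes are transcribed in waves that peak in G2 and mitosis, and several of their proteins, such as securin and the Aurora kinases, are destroyed through the anaphase-promoting complex as the cell leaves mitosis. In such bulk samples a larger share of cells in G2 and mitosis and more transcript per dividing cell cannot be told apart. Repression of many of these genes in resting cells is known to pass through a short promoter element, the cell cycle genes homology region (TTTGAA), which the DREAM and MuvB complexes bind, often together with CCAAT boxes bound by NF-Y.

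RefSeq promoter windows of build GRCm38.p6, running from 250 bases before to 50 bases after a transcript start, were found for 40 of the 46 genes by symbol. Stretches of 120 bases that end just before the start are shown for 9 of them, picked by hand. Matches after the start, as for TTTGAA in Plk1 and Hmmr, fall outside such stretches, and Bub3 has a further window that is not shown. The stretches place both elements beside genes that rose strongly (Kif11, Kif22, Top2a, Ube2c, Cdc20) and a gene that rose little (Bub3). Ncapg, which rose strongly, holds TTTGAA but no CCAAT box there. Nuf2, which rose strongly, and Pttg1, which rose little, hold neither element there. The stretches read 5′ to 3′ toward the gene. Capitals mark TTTGAA, its rarer form TTCGAA and CCAAT on either strand, so TTCAAA and ATTGG are the same elements read from the other strand.
Kif11 (chr19:37376262-37376381, plus strand): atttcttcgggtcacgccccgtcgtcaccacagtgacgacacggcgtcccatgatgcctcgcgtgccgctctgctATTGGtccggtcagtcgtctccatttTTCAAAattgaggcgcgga
Kif22 (chr7:127042421-127042540, minus strand): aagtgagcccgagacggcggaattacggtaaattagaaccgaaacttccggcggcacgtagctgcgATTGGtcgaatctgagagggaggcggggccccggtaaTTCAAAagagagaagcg
Top2a (chr11:99024190-99024309, minus strand): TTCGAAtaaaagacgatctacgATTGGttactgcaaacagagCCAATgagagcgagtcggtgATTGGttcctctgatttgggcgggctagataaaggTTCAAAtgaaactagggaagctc
Ube2c (chr2:164769809-164769928, plus strand): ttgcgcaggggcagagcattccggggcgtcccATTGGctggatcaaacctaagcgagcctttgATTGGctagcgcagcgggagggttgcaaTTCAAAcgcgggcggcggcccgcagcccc
Cdc20 (chr4:118437344-118437463, minus strand): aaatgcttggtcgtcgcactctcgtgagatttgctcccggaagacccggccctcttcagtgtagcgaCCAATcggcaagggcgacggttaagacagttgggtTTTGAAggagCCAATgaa
Ncapg (chr5:45669805-45669924, plus strand): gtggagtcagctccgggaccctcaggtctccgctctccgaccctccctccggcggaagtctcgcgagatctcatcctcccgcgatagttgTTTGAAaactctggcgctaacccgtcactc
Bub3 (chr7:131560250-131560369, plus strand): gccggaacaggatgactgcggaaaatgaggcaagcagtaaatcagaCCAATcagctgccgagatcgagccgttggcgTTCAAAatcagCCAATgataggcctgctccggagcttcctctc
Nuf2 (chr1:169531465-169531584, minus strand): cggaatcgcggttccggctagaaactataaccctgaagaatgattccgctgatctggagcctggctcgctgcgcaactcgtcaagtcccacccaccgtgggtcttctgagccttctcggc
Pttg1 (chr11:43425982-43426101, minus strand): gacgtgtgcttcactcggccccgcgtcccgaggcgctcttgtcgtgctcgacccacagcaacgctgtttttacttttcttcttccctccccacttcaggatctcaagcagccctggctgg

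In Kif11 the homology element began 19 bases before the start and a CCAAT box 45 bases before it. In Kif22 these distances were 17 and 54 bases. Top2a carried the element 23 bases before the start and 3 CCAAT boxes within the stretch shown. Ncapg had the element at 30 bases and no CCAAT box in this stretch. Over the 300 bases of the windows, TTTGAA on either strand was present for 30 of the 40 genes (75%) and for 20.2% of 27025 genes with a window. Within 50 bases on either side of the start it was present for 28 of the 40 genes and for 5.72% of all genes. A CCAAT box was present for 28 of the 40 (70%) and for 41.1% of all genes, and at least 2 of them for 19 of the 40 and for 13.3% of all genes. The rarer TTCGAA was present for 3 of the 40 genes and for 1.8% of all genes. These shares describe letters in a window and were not tested. Of the 10 genes without TTTGAA in their window, the median log2 difference between IL-2 and naive cells was 4.03, against 3.57 for the 29 measured genes that hold it. Kif18a, Bub1, Mad2l1, Plk4, Nek2, Birc5, Cenpe, Nuf2, Pttg1 and Ncaph were the 10. Among them Bub1 holds the rarer form TTCGAA, at base 15 after the start.

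**Figure D1:**
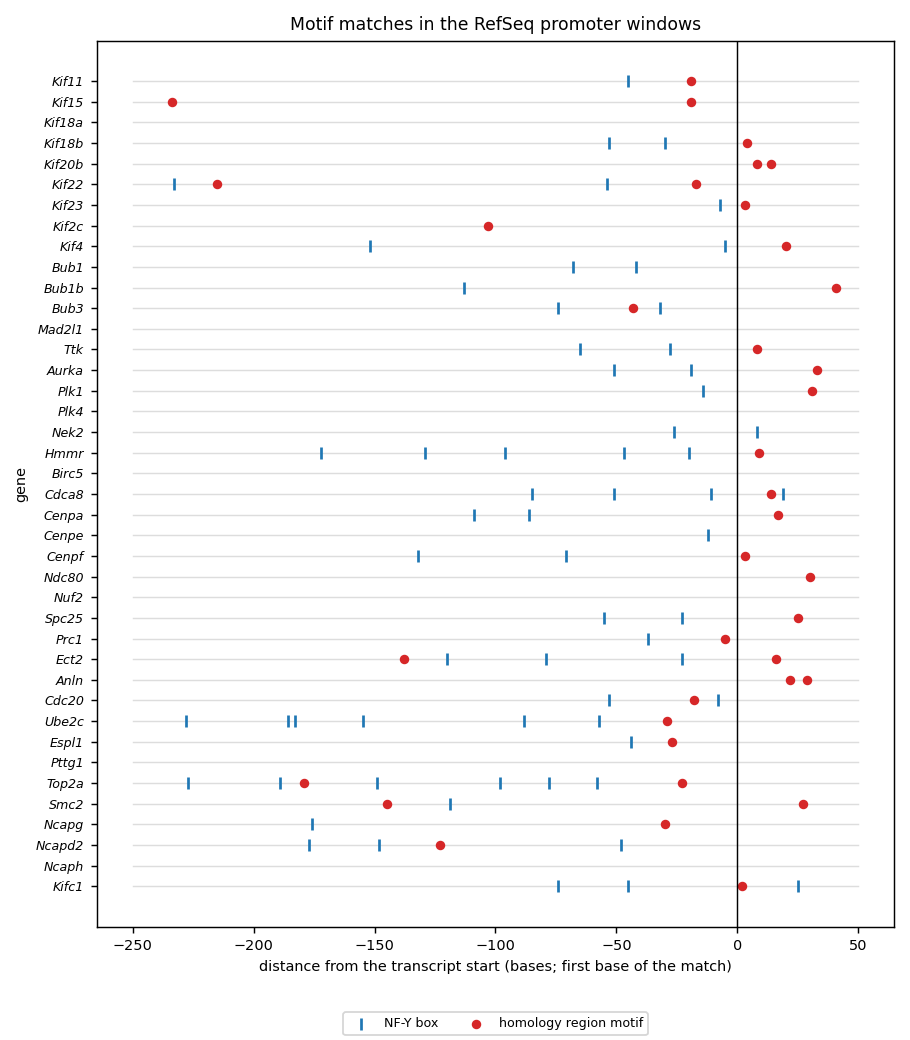
Matches of the cell cycle genes homology element (red points) and of the NF-Y box (blue ticks) on either strand, against the distance in bases from the RefSeq transcript start, for 1 window of each of the 40 genes. Red points gather near the start, where 28 of the 40 genes carry a match within 50 bases.

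Nearly all of these genes were higher in both primed groups than in naive cells. The primed cells also received gp100 and no sort is named for them, while naive cells were fresh and sorted. Cytokine, antigen, time in culture and sorting therefore cannot be told apart in any comparison with naive cells. In IL-2 primed cells 45 of the 45 measured genes were higher than in naive cells by the limma fit over 11147 genes (adjusted p under 0.05), where 25.8% of all tested genes were called higher and 19.9% lower. With IL-12, 44 of 45 were called higher than in naive cells, where 31.2% of all tested genes were called higher and 26.7% lower. The median log2 difference over the 45 genes was 3.60 with IL-2 and 3.65 with IL-12, against 0.01 and 0.04 over all tested genes. At least 8-fold rises were seen for 31 genes with IL-2 and 32 with IL-12, and at least 16-fold rises for 17 and 18. Both comparisons use the same naive arrays. Rises made up 56.4% of all calls for IL-2 against naive and 54% for IL-12 against naive; with arrays centred on their overall median the shares were 67.5% and 63.6%, and with arrays centred on the tested genes 44.8% and 47.9%, when 43 and 44 of the 45 genes were called higher. Of the 45 genes, 22 lay below the value used to filter genes (6.83) on both naive arrays and passed that filter through their primed arrays alone. The calls were the same for 44 genes with IL-2 when no filter was applied (Smc4 was the exception).

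Background differs between probe sets. The 6 Y-linked genes Eif2s3y, Kdm5d, Uty, Usp9y, Zfy1 and Zfy2, which female cells lack, read from 2.88 to 5, while the probe set of Sry, left out of that range after its values were seen, read from 7.53 to 8.13. Which naive readings of the 45 genes lie at background was therefore not tested, and where one does, the true rise may be larger than the fold given.

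**Figure D2:**
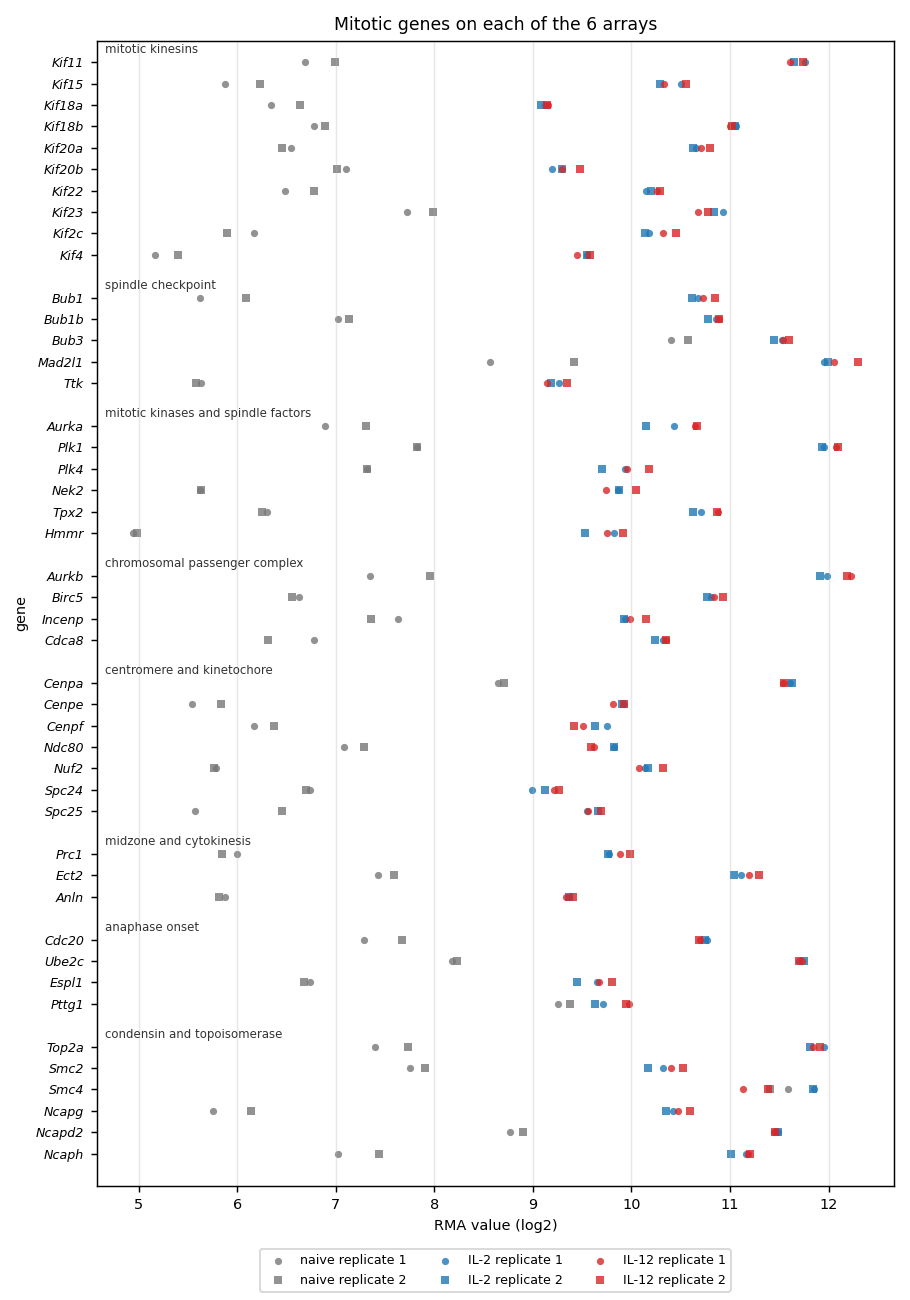
RMA values (log2) of the 45 measured genes on each of the 6 arrays, grouped by role; grey points are naive, blue IL-2 and red IL-12, circles replicate 1 and squares replicate 2. In all rows but that of Smc4 both naive arrays lie to the left of the 4 primed arrays.

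Mitotic kinesins are motors that walk on microtubules or take them apart. All 10 measured kinesins rose with both cytokines, by 4.54-fold to 29.1-fold with IL-2 and by 5.05-fold to 28.5-fold with IL-12 (limma adjusted p from 3.36e-08 to 9.95e-07). Kif11, the motor that slides the spindle poles apart, read 6.69 and 6.99 on the naive arrays, 11.76 and 11.65 with IL-2 and 11.61 and 11.74 with IL-12. That is 29.1-fold and 28.5-fold above naive cells, and the primed arrays of both cytokines overlap. Kif15, a motor that can share this task, read 5.88 and 6.23 on the naive arrays, 10.50 and 10.29 with IL-2 and 10.33 and 10.55 with IL-12. Kif4, a chromosome-bound motor of the spindle midzone, went from 5.16 and 5.40 in naive cells to 9.55 and 9.55 with IL-2 and 9.45 and 9.58 with IL-12. Kif18b, which regulates microtubule length, read 6.78 and 6.89 on the naive arrays, 11.06 and 11.05 with IL-2 and 11.00 and 11.02 with IL-12. Its relative Kif18a, which damps chromosome movement, rose less, by 6.10-fold and 6.30-fold.

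Motors of the end of mitosis moved too. Kif20a, which carries the chromosomal passenger complex to the midzone, read 6.55 and 6.45 on the naive arrays, 10.65 and 10.62 with IL-2 and 10.71 and 10.80 with IL-12. Kif23, the motor subunit of centralspindlin, went from 7.72 and 7.99 in naive cells to 10.93 and 10.84 with IL-2 and 10.67 and 10.78 with IL-12. Its rise of 8.19-fold with IL-2 and 7.29-fold with IL-12 started from naive readings above the filter value. Kif20b, a cytokinesis motor, rose 4.54-fold and 5.05-fold, the smallest rises of the 10 kinesins. Kif2c, which depolymerises microtubules at wrong attachments, read 6.17 and 5.90 on the naive arrays, 10.18 and 10.14 with IL-2 and 10.32 and 10.45 with IL-12. Kif22, the chromokinesin that pushes chromosome arms outward, rose 11.7-fold and 12.6-fold.

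The spindle checkpoint holds back anaphase until every kinetochore is attached. Bub1, the kinase that recruits the other checkpoint proteins, read 5.62 and 6.09 on the naive arrays, 10.68 and 10.61 with IL-2 and 10.73 and 10.85 with IL-12. It rose 27.7-fold with IL-2 and 30.5-fold with IL-12. Bub1b, which encodes BubR1 of the checkpoint complex, rose 13.4-fold and 14.1-fold. Ttk, the Mps1 kinase that starts the signal, went from 5.63 and 5.58 in naive cells to 9.26 and 9.18 with IL-2 and 9.14 and 9.35 with IL-12. Mad2l1, which encodes the Cdc20 inhibitor Mad2, read 8.56 and 9.42 on the naive arrays, 11.95 and 11.99 with IL-2 and 12.06 and 12.30 with IL-12 and, with its naive arrays far apart, its rise of 7.86-fold has a wide error (log2 difference 2.97 ± 0.24, SE, n = 2 arrays per group). Bub3, the adaptor that binds Bub1 and BubR1 and also works outside mitosis, read 10.40 and 10.57 on the naive arrays, 11.53 and 11.45 with IL-2 and 11.54 and 11.60 with IL-12. Its rise was 2.01-fold and 2.12-fold (limma adjusted p = 0.000113 and 4.37e-05), the smallest of the 5 checkpoint genes.

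Mitotic kinases and spindle assembly factors rose by 5.65-fold to 26.3-fold with IL-2, 6 of 6 genes. Plk1, the kinase of mitotic entry, centrosome maturation and cytokinesis, read 7.82 and 7.82 on the naive arrays, 11.95 and 11.93 with IL-2 and 12.08 and 12.10 with IL-12. Its naive arrays were equal to the second decimal, and the IL-12 arrays both lay above the IL-2 arrays. Plk4, the kinase of centriole duplication, rose 5.65-fold and 6.70-fold. Nek2, which separates centrosomes, went from 5.62 and 5.63 in naive cells to 9.86 and 9.87 with IL-2 and 9.74 and 10.05 with IL-12. Aurka, the Aurora A kinase of the spindle poles, read 6.89 and 7.31 on the naive arrays, 10.43 and 10.15 with IL-2 and 10.64 and 10.66 with IL-12. Tpx2, which activates Aurora A on the spindle, rose 21.1-fold and 24.3-fold. Hmmr, a spindle microtubule protein, read 4.94 and 4.98 on the naive arrays, 9.82 and 9.53 with IL-2 and 9.75 and 9.91 with IL-12. It rose 26.3-fold and 29.3-fold.

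The chromosomal passenger complex corrects attachments and later organises cytokinesis. All 4 of its genes rose. Aurkb, its Aurora B kinase, read 7.35 and 7.96 on the naive arrays, 11.98 and 11.91 with IL-2 and 12.23 and 12.19 with IL-12. Birc5, which encodes survivin, read 6.63 and 6.56 on the naive arrays, 10.81 and 10.77 with IL-2 and 10.84 and 10.93 with IL-12. Cdca8, which encodes borealin, rose 13.3-fold and 14.0-fold. Incenp, the scaffold of the complex, rose 5.39-fold and 5.94-fold. Aurkb rose 19.7-fold and 23.6-fold, and Birc5 18.3-fold and 19.6-fold. These folds come from different probe sets, and their differences were not tested.

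At the centromere and kinetochore 7 of 7 genes rose with each cytokine. The Ndc80 complex grips microtubules, and all 4 of its subunit genes rose. Nuf2 read 5.78 and 5.76 on the naive arrays, 10.14 and 10.17 with IL-2 and 10.08 and 10.32 with IL-12, a 20.9-fold and 21.5-fold rise. Its partner Ndc80 went from 7.08 and 7.29 in naive cells to 9.82 and 9.82 with IL-2 and 9.62 and 9.59 with IL-12, 6.20-fold and 5.35-fold. Spc25 read 5.57 and 6.45 on the naive arrays, 9.55 and 9.66 with IL-2 and 9.56 and 9.69 with IL-12, with the widest gap between naive arrays of all 45 genes (0.88). Spc24 rose 5.04-fold and 5.70-fold. Cenpa, the histone H3 variant that marks centromeres, read 8.65 and 8.71 on the naive arrays, 11.61 and 11.63 with IL-2 and 11.54 and 11.55 with IL-12. Cenpe, a kinetochore kinesin, rose 18.7-fold and 18.1-fold, and Cenpf, a large kinetochore protein, 10.7-fold and 9.17-fold.

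For the midzone and the cleavage furrow, Prc1, which bundles antiparallel microtubules, read 6.00 and 5.84 on the naive arrays, 9.77 and 9.76 with IL-2 and 9.88 and 9.99 with IL-12. Ect2, the exchange factor that activates RhoA at the furrow, rose 11.9-fold and 13.3-fold, and Anln, the scaffold anillin, 11.5-fold and 11.6-fold. Among the genes of anaphase onset, Cdc20, the activator of the anaphase-promoting complex, read 7.29 and 7.67 on the naive arrays, 10.77 and 10.75 with IL-2 and 10.70 and 10.69 with IL-12. Ube2c, the ubiquitin-conjugating enzyme of that complex, went from 8.18 and 8.23 in naive cells to 11.70 and 11.75 with IL-2 and 11.73 and 11.70 with IL-12. Espl1, which encodes separase, the protease that opens cohesin, rose 7.15-fold and 8.14-fold.

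Pttg1, which encodes securin, the inhibitor of separase, changed by less than these. It read 9.25 and 9.38 on the naive arrays, 9.71 and 9.63 with IL-2 and 9.97 and 9.94 with IL-12. The naive values lie below the primed ones, but the rise was 1.28-fold with IL-2 (log2 difference 0.35 ± 0.10; limma adjusted p = 0.0223) and 1.56-fold with IL-12 (0.64 ± 0.10; limma adjusted p = 0.000759). Leaving out naive replicate 1 (limma adjusted p = 0.0581), the first IL-2 array (0.15) or the second (0.0785) ended the IL-2 call, with log2 differences of 0.28, 0.31 and 0.39. Centring arrays on the median of the tested genes also ended it (0.0591, log2 difference 0.25). Where an arm keeps 1 array, that array is assumed to vary like the other groups, here and below.

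Condensin I compacts chromosomes, and topoisomerase II untangles them. Top2a read 7.40 and 7.73 on the naive arrays, 11.95 and 11.81 with IL-2 and 11.84 and 11.91 with IL-12. A second probe set named for Top2a read 3.54 on both naive arrays, 4.16 and 4.30 with IL-2 and 4.37 and 4.80 with IL-12. The condensin I subunit genes Ncapg, Ncaph and Ncapd2 rose 21.6-fold, 14.5-fold and 6.29-fold with IL-2, and 24.0-fold, 15.6-fold and 6.15-fold with IL-12. Smc2, a core ATPase shared by both condensins, rose 5.36-fold and 6.21-fold.

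Its partner ATPase is encoded by Smc4, which read 11.59 and 11.41 on the naive arrays, 11.85 and 11.84 with IL-2 and 11.13 and 11.39 with IL-12. With IL-2 it was 1.27-fold above naive cells (log2 difference 0.35 ± 0.12, limma adjusted p = 0.0465), a call held under 9 of 17 alternative settings. On all arrays the call ended with no filter (limma adjusted p = 0.0631), quantile normalization (0.0987) or array weights (0.0747). A replicate block (0.055) and centring on the tested genes (0.141) ended it too. So did leaving out naive replicate 2, the first IL-2 array or the second, with log2 differences of 0.26, 0.34 and 0.35. With IL-12 its log2 difference from naive cells was -0.24 ± 0.12 (limma adjusted p = 0.122). It was the 1 gene of the 45 whose IL-12 arrays did not lie above both naive arrays.

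Between the cytokines the differences were small beside those from naive cells. When IL-12 was set against IL-2, 0 of the 45 genes were called higher by limma at an adjusted p under 0.05, where 9.82% of all tested genes were called higher, and 1 was called lower, where 11% were. At an unadjusted p under 0.05 in the limma fit, 3 of the 45 genes passed. No share of all tested genes was taken at this threshold, so this count cannot be set against the shares above. The median log2 difference was 0.08, against 0.02 for all tested genes, and 32 of the 45 differences were above 0. The 95% interval of the difference lay within 1.5-fold either way for 41 of the 45 genes, and the 4 others were Smc4 (-0.87 to -0.31 on the log2 scale), Aurka (0.00 to 0.71), Aurkb (-0.14 to 0.67) and Mad2l1 (-0.33 to 0.75). Shares of all tested genes above 0 or with such intervals were not taken, so neither count is particular to these genes by what is shown.

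**Figure D3:**
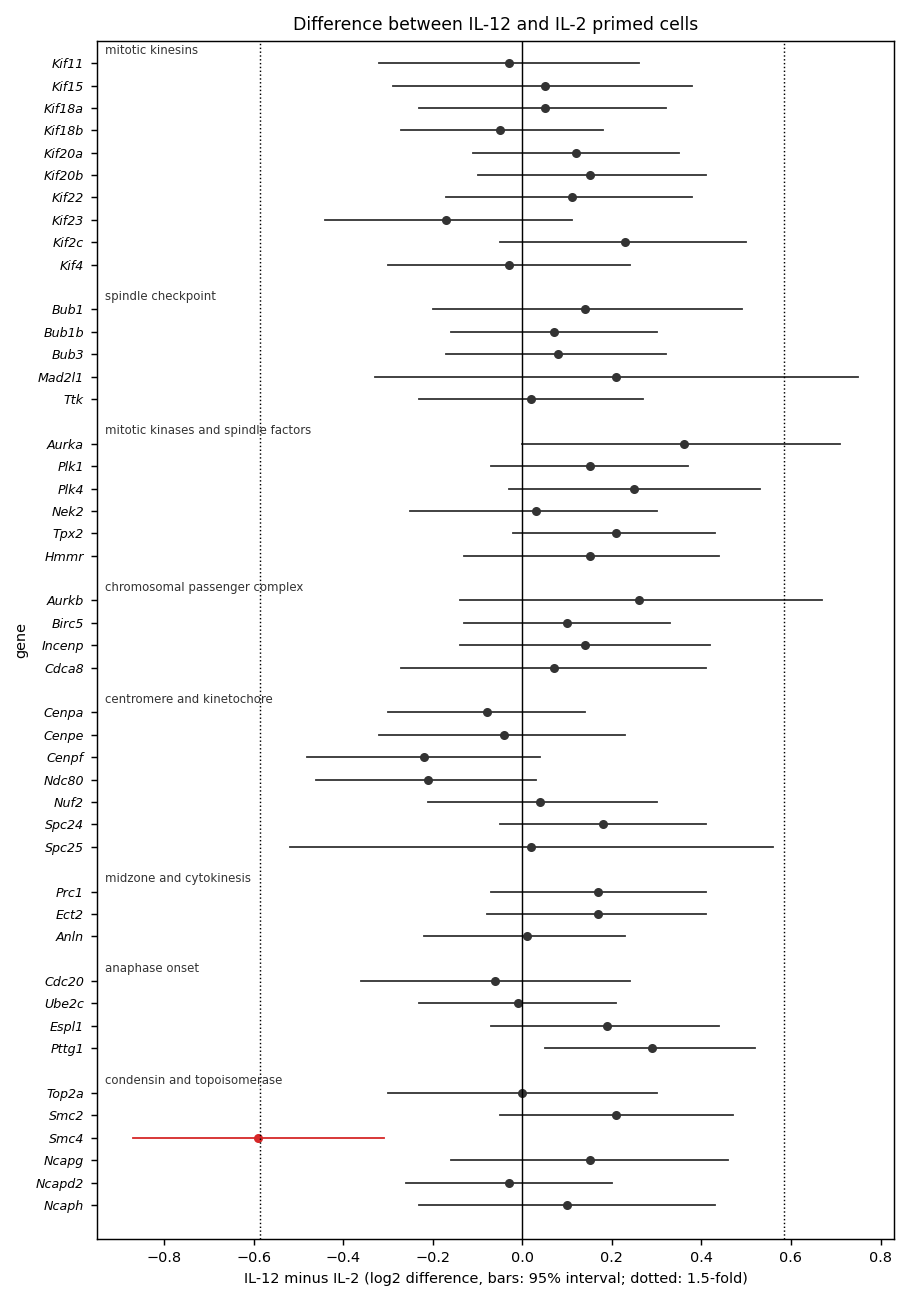
Log2 difference between IL-12 and IL-2 primed cells for each of the 45 genes, with the 95% interval of the limma fit; dotted lines mark 1.5-fold and red marks the gene called at an adjusted p under 0.05. Smc4 alone is called, at -0.59, and 41 intervals lie between the dotted lines.

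Smc4 was the gene called lower, with 11.85 and 11.84 on the IL-2 arrays and 11.13 and 11.39 on the IL-12 arrays. Its log2 difference was -0.59 ± 0.12 (SE, n = 2 arrays per group), a 1.51-fold lower value with IL-12 (limma adjusted p = 0.0115). Both IL-12 arrays lay below both IL-2 arrays. Leaving out either IL-2 array (limma adjusted p = 0.0774 without replicate 1, 0.0892 without replicate 2) or the first IL-12 array (0.0849) ended the call, and it held under the other 14 of 17 settings, with log2 differences from -0.72 to -0.46 over all of them.

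The differences with the smallest p after Smc4 were those of Pttg1 and Aurka. Pttg1 read 9.71 and 9.63 on the IL-2 arrays and 9.97 and 9.94 on the IL-12 arrays, a log2 difference of 0.29 ± 0.10 (limma adjusted p = 0.0806). Aurka read 10.43 and 10.15 on the IL-2 arrays and 10.64 and 10.66 on the IL-12 arrays, a log2 difference of 0.36 ± 0.16 (limma adjusted p = 0.138). In both genes the IL-12 arrays lay above the IL-2 arrays. A fit on the 4 primed arrays alone, whose spread estimate leaves out the naive arrays, called 4 genes: Smc4 lower and Pttg1 (limma adjusted p = 0.0354), Aurka (0.0456) and Aurkb (0.0473) higher in IL-12. Leaving out either naive array gives the same fit for this contrast and is no further check. When either IL-2 array or the first IL-12 array was left out, 0 of the 45 were called.

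By role, the kinesins ranged from -0.17 for Kif23 to 0.23 for Kif2c between the cytokines, and 10 of 10 intervals lay within 1.5-fold. For Kif11 the difference was -0.03 ± 0.13 and for Kif4 -0.03 ± 0.12. The 5 checkpoint genes lay between 0.02 and 0.21. Mitotic kinases and spindle factors lay between 0.03 and 0.36, the chromosomal passenger complex between 0.07 and 0.26, and midzone and cytokinesis genes between 0.01 and 0.17. Genes of anaphase onset ranged from -0.06 to 0.29, and condensin and topoisomerase genes from -0.59 to 0.21. Kinetochore genes lay on both sides of 0: Cenpf (-0.22 ± 0.11) and Ndc80 (-0.21 ± 0.11) read lower on both IL-12 arrays than on both IL-2 arrays, and Spc24 (0.18 ± 0.10) read higher, without passing the test. Top2a differed by 0.00 ± 0.13, Ube2c by -0.01 ± 0.10 and Anln by 0.01 ± 0.10.

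The gaps between replicate arrays ran the same way in many of these genes. Within the naive group, replicate 2 read higher than replicate 1 for 29 of the 45 genes, where 60.9% of all tested genes did. Among IL-2 arrays, replicate 1 read higher for 34 of 45, although 51.4% of all tested genes read higher on replicate 2. Among IL-12 arrays, replicate 2 read higher for 36 of 45, where 54.6% of all tested genes did. With each array centred on the median of all its probe sets, replicate 2 read higher for 39 of the 45 in naive, 9 in IL-2 and 39 in IL-12 cells. No share of all tested genes was taken under this centring, so these counts cannot be set against the shares above. That median was 6.95 on naive replicate 1 and 6.85 on naive replicate 2, while the median of the tested genes was 8.69 and 8.78. The median size of the gap was 0.17 in naive, 0.07 in IL-2 and 0.10 in IL-12 cells, against 0.17, 0.09 and 0.10 for all tested genes. The widest gap in primed cells was 0.31, that of Nek2 with IL-12. The replicate numbers carry no order.

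**Figure D4:**
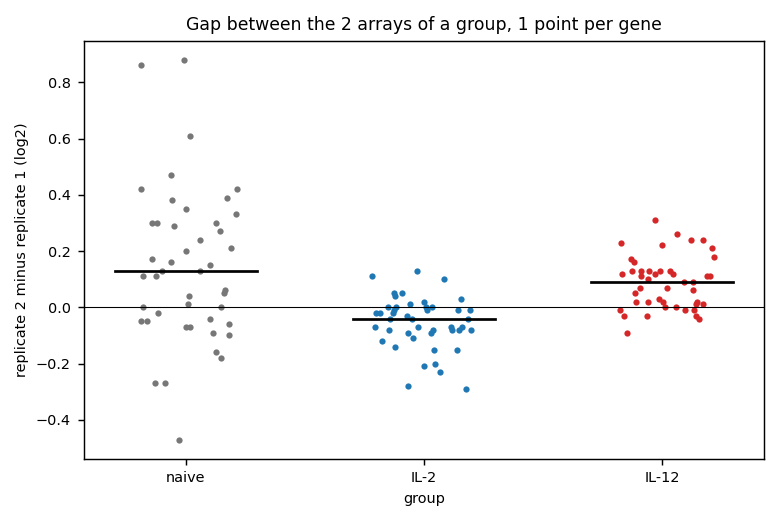
Difference between the 2 arrays of each group (replicate 2 minus replicate 1, log2), 1 point for each of the 45 genes, with the median as a bar. Naive points spread widest, up to 0.88 for Spc25, and most IL-12 points lie above 0 while most IL-2 points lie below it.

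Other genes of the pathway, from lists chosen by name, rose as well, though not all of them. Over all tested genes 25.8% were called higher and 19.9% lower with IL-2 than in naive cells, and 31.2% and 26.7% with IL-12. Between the cytokines 9.82% were called higher and 11% lower with IL-12. The counts of the lists below stand beside these shares. Of 23 further spindle and cytokinesis genes, 19 were higher and 1 lower in IL-2 than in naive cells (median log2 difference 2.21). Aspm, a spindle pole protein, read 6.16 and 6.19 on the naive arrays, 9.85 and 9.88 with IL-2 and 9.40 and 9.51 with IL-12. Spag5, which encodes astrin, rose 13.3-fold and Dlgap5, a spindle microtubule protein, 12.2-fold. Numa1, a spindle pole protein that is nuclear in interphase, was the 1 that fell and read 11.28 and 11.26 on the naive arrays, 10.73 and 10.67 with IL-2 and 10.64 and 10.59 with IL-12. Between the cytokines 1 of the 23 was called, Aspm, which was 1.33-fold lower with IL-12 (limma adjusted p = 0.0208).

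Of 27 further centromere and kinetochore genes, 26 were tested, and 22 were called higher with IL-2 and 26 with IL-12 than in naive cells. Knl1, the scaffold that recruits Bub1, rose 13.4-fold and 13.6-fold, and Kntc1, which encodes Rod, 10.5-fold and 13.2-fold. Cenph, an inner kinetochore gene, was the 1 called between the cytokines, 1.39-fold higher with IL-12 (limma adjusted p = 0.0413).

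The anaphase-promoting complex, which Cdc20 and Ube2c serve, is a complex of many subunits. Of 16 genes for its core, its other activator and a second conjugating enzyme, 8 rose with IL-2 and 12 with IL-12, and the median log2 difference was 0.36 and 0.40. Over all tested genes 25.8% rose with IL-2 and 31.2% with IL-12. Those of the 16 with the smallest p were Fzr1, the activator Cdh1, at 3.13-fold with IL-2, and Ube2s, which extends ubiquitin chains, at 2.68-fold. Anapc15, a subunit gene, was the 1 called between the cytokines, by 0.49 ± 0.14 (limma adjusted p = 0.036). The share of all tested genes called higher with IL-12 than with IL-2 was 9.82%. Of 12 cohesin genes 5 rose and 2 fell with IL-2, where 25.8% of all tested genes were called higher and 19.9% lower. Esco2, the acetyltransferase of S phase, and Cdca5, which encodes sororin, rose 19.7-fold and 19.5-fold, while the ring subunit gene Rad21 rose 1.59-fold. Between the cytokines 2 cohesin genes were called lower with IL-12, the loader gene Nipbl by -0.55 ± 0.12 (limma adjusted p = 0.0127) and the acetyltransferase gene Esco1 by -0.42 ± 0.11 (limma adjusted p = 0.0282). In condensin II, Ncapg2 rose 15.8-fold and Ncaph2 1.94-fold with IL-2, and Ncapd3 differed by 0.17 ± 0.12 (limma adjusted p = 0.287).

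All 14 tested genes for G2 and M phase cyclins, kinases and transcription factors rose with both cytokines. Ccna2, which encodes cyclin A2, rose 23.4-fold and 24.8-fold. Mki67, the marker Ki-67 of cycling cells, read 8.36 and 8.25 on the naive arrays, 12.41 and 12.24 with IL-2 and 12.23 and 12.28 with IL-12; it differed by -0.07 ± 0.11 between the cytokines (limma adjusted p = 0.697). Mybl2, a transcription factor that joins MuvB at cell cycle promoters, was the 1 called between the cytokines, higher with IL-12 by a log2 difference of 0.59 ± 0.10 (limma adjusted p = 0.00519). Foxm1, the activator of late mitotic genes, differed by 0.00 ± 0.10.

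DNA replication genes, which serve the preceding S phase, are given beside them. Of 29 such genes, 29 rose with each cytokine against naive cells, with medians of 1.89 for IL-2 and 2.37 for IL-12. Between the cytokines 13 of 29 were called higher and 0 lower with IL-12 (median 0.39), whereas 0 of the 45 mitotic genes were called higher (median 0.08). Pole2, a polymerase epsilon subunit, read 9.56 and 9.58 on the IL-2 arrays and 10.48 and 10.66 on the IL-12 arrays, and Orc1, of the origin recognition complex, 7.71 and 7.55 on the IL-2 arrays and 8.40 and 8.71 on the IL-12 arrays. The difference between the lists was not tested.

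**Figure D5:**
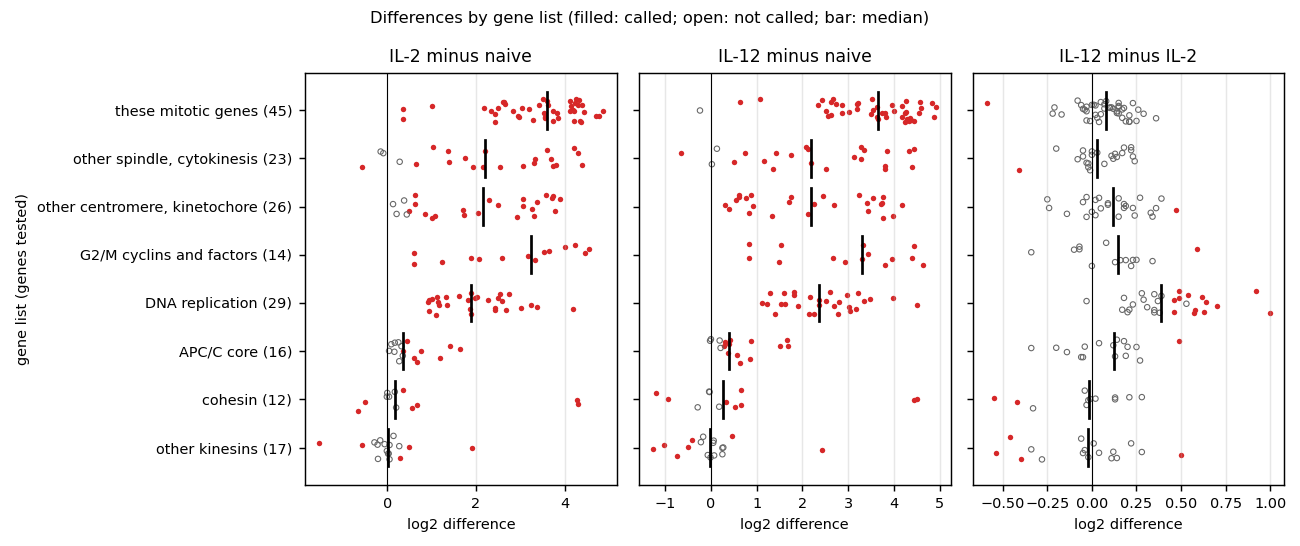
Log2 differences of single genes in 8 gene lists for the 3 comparisons, with filled points called at a limma adjusted p under 0.05, open points not called and bars at the median. The 45 mitotic genes have medians of 3.60 and 3.65 against naive cells and 0.08 between the cytokines, where the DNA replication genes have 0.39.

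Markers of the labelled cell type were present on all arrays. Cd8a read 12.61 and 12.66 in naive cells, 12.26 and 12.36 with IL-2 and 12.17 and 12.12 with IL-12, and Cd3e lay between 12.76 and 13.31. The summed linear signal of 9 CD8 T cell markers was 49400 and 53920 in naive, 50440 and 51520 in IL-2 and 40490 and 39510 in IL-12 cells. Of these 9 markers 5 were called lower and 0 higher with IL-12 than with IL-2, where 11% of all tested genes were called lower. Cd5 (log2 difference -0.66), Thy1 (-0.52) and Cd8b1 (-0.44) had the smallest p. Against naive cells 6 were called lower with IL-12, where 26.7% of all tested genes were. With IL-2, 1 was called higher (Cd3d) and 1 lower (Cd8a). Markers of other cells also moved with the groups. All 12 measured B cell markers were lower in both primed groups than in naive cells, and 9 of them were higher with IL-12 than with IL-2. Their summed signal was 6471 and 6557 in naive, 1533 and 1597 in IL-2 and 3032 and 3051 in IL-12 cells. Of 8 tested myeloid and dendritic markers 7 were lower with IL-2 and 6 with IL-12 than in naive cells, and 1 (Itgam) was higher with IL-12; the sums of 11 markers ran from 3045 to 3502 in naive, 978.6 to 1127 in IL-2 and 1201 to 1229 in IL-12 cells. For 4 natural killer cell markers the sums were 277.1 to 339.1, 399.1 to 400.9 and 700.6 to 759.9. That order came from Klrb1f, with group means of 7.25, 8.27 and 9.28, while Ncr1 (5.92, 5.43, 5.82), Klrb1c (5.34, 4.76, 4.43) and Klra8 (5.71, 4.44, 4.92) were highest in naive cells and too low to be tested. For 4 CD4 T cell markers they were 431.8 to 432.6, 786.6 to 834.4 and 692.9 to 734.9, with Zbtb7b at means of 7.21, 9.08 and 8.74, Cd4 at 6.59, 6.25 and 6.43, Foxp3 at 7.19, 7.22 and 7.17 and Cd40lg at 5.28, 5.46 and 5.73. For 5 erythroid and platelet markers the sums were 519.5 to 564.3, 482.5 to 507.8 and 449 to 487.5. The part of these cells in the values of the mitotic genes was not tested.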

How the data were processed

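The log2 values of 35556 probe sets on 6 arrays are the authors' deposited RMA output, as the submitters' processing notes name it, and span 2.51 to 14.72. The RMA version, its settings and the build are not given in the sources used here. Because RMA normalises arrays to each other, a shift common to most genes cannot be seen. The deposited values do not share one distribution exactly, since the median over all probe sets ran from 6.78 to 6.95 between arrays. Columns of no sample numbered 0.

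The platform annotation gave 21789 probe sets 1 gene symbol and 1621 several; 12146 were not listed. Symbols were updated through RefSeq (GRCm38.p6). A gene kept its probe set with the highest mean and was tested if 2 or more arrays exceeded the 50th percentile of the whole table (6.83), leaving 11147 of 19938 genes. All arrays entered 1 limma 3.58.1 fit in R 4.3.3 (functions lmFit and eBayes, a mean for each group, 3 residual and 5.62 prior degrees of freedom), two-sided, with Benjamini-Hochberg adjustment over all tested genes and a threshold of 0.05. The fit was tested on simulated data. Arrays carry no read depth; their number limits the precision.

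The 46 genes, the gene lists and the rules for naming genes were chosen with earlier results of these data known. From the other lists up to 3 genes with the smallest adjusted p were named, or those with the highest mean where fewer were called; Mki67, Cd8a and Cd3e were always named, and Numa1, the single fall of its list, was named after its value was seen. Alternatives were other filters, probe set rules, normalizations and variance models, a replicate block, fits on the compared groups alone and leaving out each array. Centring on the median of the tested genes and a fit with probe sets of several symbols were added after seeing the data.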

Additional observations from a re-analysis of the deposited data

Results flagged for a closer look

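The response of Smc4 to priming differed between the cytokines. Its change from naive cells was 0.35 ± 0.12 with IL-2 and -0.24 ± 0.12 with IL-12 on the log2 scale, and the difference between these, which is the IL-12 minus IL-2 contrast of the limma fit, was -0.59 (adjusted p = 0.0115).

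The probe set annotated to both Kifc1 and Kifc5b, which entered no comparison above, read 8.16 and 8.08 on the naive arrays, 9.25 and 9.19 with IL-2 and 9.31 and 9.27 with IL-12. In a limma fit of 12221 probe sets that included those with several symbols, added after seeing the data, it was higher than in naive cells by 1.10 with IL-2 (adjusted p = 9.2e-05) and by 1.17 with IL-12 (adjusted p = 4.23e-05), and it differed by 0.07 between the cytokines (adjusted p = 0.672). Kifc1 encodes a minus-end directed spindle kinesin, and these probes cannot tell the transcripts of the 2 genes apart. In the same fit, 2 probe sets annotated to Top2a and Hibadh together were higher by 1.21 and 1.20 with IL-2 (adjusted p = 0.00315 and 0.00404), a smaller rise than the 4.32 of the probe set used for Top2a.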

How the results depend on the processing

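Against naive cells, 43 to 45 of the 45 genes were called under each of 17 alternatives for IL-2, and 44 or 45 for IL-12; the genes whose call changed were Smc4 and Pttg1 for IL-2 and, with quantile normalization, Smc4 for IL-12 (lower, limma adjusted p = 0.0236). Between the cytokines the single call became 3 with array weights (Aurka and Pttg1 added), 4 with the compared groups only, 0 to 4 when single arrays were left out, and 2 with arrays centred on the median of tested genes (Pttg1 added); under the other settings it was 1. Of 2295 recomputed differences of single genes, 0 called ones turned their sign, and 22 that were called neither way did. Leaving out an array of the group outside a contrast gives the same fit as the compared groups only, so the 17 settings are not all separate checks. Whether the replicate numbers pair the arrays is not stated. Deviations of arrays with the same number correlated at 0.02 (naive and IL-2), -0.02 (naive and IL-12) and 0.15 (IL-2 and IL-12). With 2 arrays a group, such correlations cannot show whether arrays share mice or cultures. With a replicate block 44, 44 and 1 genes were called for IL-2 against naive, IL-12 against naive and IL-12 against IL-2. Counts over all genes moved more: between the cytokines 2321 genes were called, 3839 with array weights, 3533 with the compared groups only, and 737 to 3533 without single arrays; for IL-2 against naive 3341 were called without IL-2 replicate 1 and 5095 with all arrays. Centring arrays on their overall median shifted the median difference from naive cells by 0.10 with IL-2 and 0.12 with IL-12 and raised the share of calls that were rises from 56.4% to 67.5% and from 54% to 63.6%; centring on the tested genes shifted it by -0.10 and -0.07 and lowered the shares to 44.8% and 47.9%.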

Other observations

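Kinesins outside the mitotic set, most of them cargo motors of interphase, and kinesin light chains formed a list of 29 genes. Of these 28 were measured and 17 tested. Against naive cells 3 were higher and 2 lower with IL-2, and 2 higher and 5 lower with IL-12, with medians of 0.02 and -0.01. Over all tested genes 25.8% were higher and 19.9% lower with IL-2, and 31.2% and 26.7% with IL-12. Kif24, a centriole kinesin that limits cilium formation, read 6.27 and 6.09 on the naive arrays, 8.21 and 7.99 with IL-2 and 8.62 and 8.59 with IL-12, and was 1.42-fold higher with IL-12 than with IL-2 (limma adjusted p = 0.0177). Kif1b, a transport motor, went the other way: it read 9.80 and 9.74 on the naive arrays, 8.23 and 8.24 with IL-2 and 8.58 and 8.43 with IL-12. Kif21b, a motor that limits microtubule growth, read 11.53 and 11.20 on the naive arrays, 10.76 and 10.83 with IL-2 and 10.32 and 10.35 with IL-12, and was 1.37-fold lower with IL-12 than with IL-2 (limma adjusted p = 0.0335). Kifc2 was 1.46-fold lower with IL-12 than with IL-2 (limma adjusted p = 0.0165).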
